A study of Mus musculus with 12 samples.

Results

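The 4 Control libraries describe gene expression in the epithelium of the wildtype mouse urogenital sinus at embryonic day 15.5. They were chosen by their genotype label alone and make up 4 of the 12 samples of the series. The remaining samples carry a Dnmt1 deletion and were not compared here. All 4 came from untreated C57BL/6J embryos produced by timed matings. Trypsin was used to part the epithelium from the stroma, and the tissue of several embryos went into a single lysate for each harvest, so a library stands for a pool and not for 1 animal. The labels do not give the sex of the embryos or say whether the lysates were made on separate days. The sample descriptions carry the unexplained codes 4, 5, 6 and 7 after a letter b, and replicate numbers 1, 2, 2 and 3 that differ from the 1 to 4 of the titles, so whether the 4 libraries are independent pools is not settled.

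The urogenital sinus is the endodermal tube below the bladder from which the urethra and, in males, the prostate arise. Its epithelium receives signals from the surrounding mesenchyme and sends out signals of its own, of which Sonic hedgehog is the best known, before prostatic buds grow out. Basal cells of stratified epithelia hold Trp63 and keratins 5, 14 and 15, while simple and luminal cells are known for keratins 7, 8, 18 and 19.

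Levels are CPM, the estimated counts of a gene scaled to a library total of 1000000 counts. Genes are compared with each other only in CPM per kilobase of transcript (CPM per kb). Values printed in sets of 4 are in the order Control 1, 2, 3 and 4. Intervals in parentheses are exact Poisson 95% intervals of a single library, and they cover counting error only. For a gene at 0, the limit printed is the level of 3 counts, a one-sided 95% limit that lies below the upper end of the 2-sided interval. Because a single group is described, no test between groups was made, and the SD of a value is its spread over the 4 libraries.

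Dnmt1, the maintenance DNA methyltransferase that was deleted in the remaining samples of the series, had 176, 116, 195 and 1.84 CPM in the libraries labelled Control 1, 2, 3 and 4. Controls 1, 2 and 3 held 1337, 338 and 314 counts of it. The library labelled Control 4 held 1 count (95% interval 0.0466 to 10.2 CPM). Of the 1700 genes at or above 100 CPM in both Controls 1 and 2, 263 had 3 counts or fewer in Control 4. The source of the low Dnmt1 count was not tested, so the wildtype label of this library stands unchecked. The name Control 4 stands for that label throughout.

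The libraries held 7577706, 2915193, 1613514 and 543591 counts, and a single count was worth 0.132, 0.343, 0.620 and 1.84 CPM. At least a trace of signal was found for 13116, 10753, 9097 and 6744 of the 20308 genes in the table. At the depth of Control 4, Controls 1, 2 and 3 would be expected to show 12188, 9831 and 7663 genes. Controls 3 and 4 therefore held fewer genes than Controls 1 and 2 at equal depth. The 100 genes with the most counts took 22.7%, 24.1%, 26.3% and 32.0% of the counts. The number of genes at or above 100 CPM was similar, at 2095, 2189, 2265 and 1992, whereas the number at or above 10 CPM was 9469 and 8496 in Controls 1 and 2 and 5843 and 3177 in Controls 3 and 4. Controls 3 and 4 stand apart from the deep pair and from each other, and for that reason every result is given by library.

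Controls 1 and 2 gave similar profiles, and the shallow libraries did not. Over 12824 genes with at least 10 counts in all, Pearson's r of log2(CPM + 1) between Controls 1 and 2 was 0.769 and Spearman's rho was 0.808. These are correlations across genes, which are not independent replicates. The pairs of a deep with a shallow library had r of 0.558 to 0.622, and Controls 3 and 4 had the lowest r, 0.517. Of the genes with a mean of at least 100 CPM in a pair, 90.3% lay within 2-fold between Controls 1 and 2, 58.0% between Controls 1 and 3, 35.5% between Controls 1 and 4, and 34.4% between Controls 3 and 4. By r and by this share, the shallow libraries were no closer to each other than to the deep ones.

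Many genes with high levels in the deep libraries had few counts in a shallow one. Of the 1700 genes at or above 100 CPM in both Controls 1 and 2, 50 had 3 counts or fewer in Control 3, where a gene at 100 CPM would have 161 counts. In Control 4, 263 of these genes had 3 counts or fewer, where 54.4 would be expected at 100 CPM. Only 1 of the 1700 genes was at 0 in both shallow libraries. For the 1594 genes with a mean of 100 to 300 CPM over Controls 1 and 2, levels were set against Control 1. In Control 4, 26.3% of them had at most 3 counts, 17.5% were more than 2-fold above Control 1 and 28.2% lay within 2-fold. In Control 2 the share within 2-fold of Control 1 was 88.8%, but Control 2 had helped to choose these genes. In the opposite direction, of the 999 genes at or above 100 CPM in both Controls 3 and 4, 2 were under 10 CPM in Control 1 and 4 in Control 2. A gene with a high level in both shallow libraries was thus nearly always present in the deep ones. The source of this difference was not tested.

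**Figure D1:**
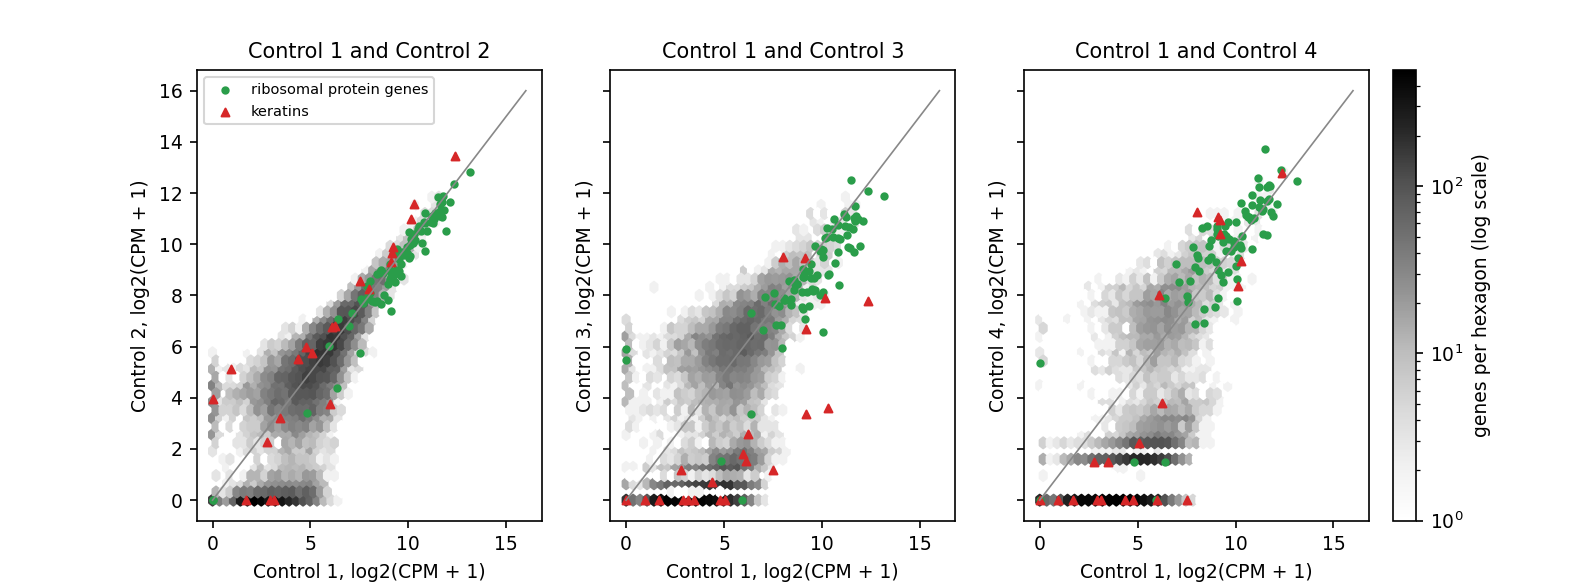
Level of each gene in Control 1 (x axis) against Control 2, 3 or 4 (y axis), both as log2(CPM + 1), with the shade giving genes per hexagon on a log scale, green points the ribosomal protein genes and red triangles the keratins. The cloud lies mostly along the diagonal for Control 2, with a band at 0, while in Controls 3 and 4 it parts into a group of genes near the level of a few counts and a group above the diagonal.

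Genes of protein synthesis led every library. The 86 genes of cytoplasmic ribosomal proteins took 11.3, 9.68, 7.29 and 14.7% of the counts, and 53 of the 100 genes with the highest median level per kb belonged to them. Rps3a1, Rps24 and Rpl19, which code for proteins of the small and large subunits, had median levels of 5354, 5242 and 4831 CPM per kb. Many ribosomal protein genes have near-identical pseudogenes, so their single values are uncertain.

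Outside the ribosome the highest median level was that of Eef1a1, the elongation factor that brings tRNA to the ribosome, at 5339 CPM per kb. Krt15, a keratin of basal cells, came next at 3642 CPM per kb and ranked 6 among all genes with a length. It was followed by Hmgb1 (3608), Ptma (3221) and H3f3a (2978), which code for chromatin-associated proteins and a replacement histone, and by the chaperone Hsp90ab1 (2592), all in CPM per kb. Hmgb1, Ptma and H3f3a also have near-identical copies in the genome. Hsp90ab1 was among the steadiest of these, with levels of 6249, 7071, 6812 and 6108 CPM. Krt15 was therefore the single gene tied to an epithelial cell type among the 20 leading genes that were not ribosomal.

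Between libraries, 44 genes were shared by all 4 lists of the 100 highest genes. The lists of Controls 1 and 2 had 82 genes in common, those of Controls 1 and 4 had 57, and those of Controls 3 and 4 had 63. Control 4 had 26 genes on its list that were on no other, among them Krt8, Krt18, Krt19 and Spint2, and Control 3 had 15, among them Nefm, Hba-a2 and Hbb-bs. Lars2, which codes for the mitochondrial leucyl-tRNA synthetase, had levels of 856, 10715, 32962 and 1645 CPM and was highest in Control 3 and lowest in Control 1.

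Keratin genes gave some of the highest epithelial levels, and Krt15 supplied most of their counts in Controls 1 and 2. The 50 keratin genes in the table summed to 10110.0, 19815, 2021 and 16282 CPM, of which 27 genes were at 0 in every library and 6 reached 10 CPM in every library. Of all 20308 genes, 6662 and 2309 did so. Keratins build the intermediate filaments of epithelial cells from pairs of an acidic type I and a basic type II chain. Control 3 had the lowest sum and Control 2 the highest, and the Control 2 sum was 9.81 times that of Control 3.

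Krt15, on chr11:100131758-100135928 of GRCm38 and on the minus strand, had 5256, 11224, 219 and 7129 CPM. Its value in Control 3 (95% interval 197 to 243 CPM) lay far below the other libraries, whose lowest value was 5256. Krt5, the type II partner of the basal keratins, had 1123, 2033, 240.4 and 327 CPM, and here both shallow libraries were below both deep ones. Krt14, the type I partner of Krt5 in basal cells, had 181, 376, 1.24 and 0 CPM. The 3-count limit in Control 4 is 5.52 CPM, so Krt14 was not detectable there while Krt5 and Krt15 were. Krt17, another basal keratin, had the order of Krt5, with 75.0, 111, 5.02 and 12.9 CPM. Krt4, a keratin of the inner layers of stratified mucosa, was the second keratin by median level per kb, with 1259.7, 3033, 11.2 and 657 CPM, and its usual partner Krt13 had 5.94, 3.77, 1.24 and 1.84 CPM. Per kb the median of Krt13 was 1.70 CPM per kb against 449 CPM per kb for Krt4.

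Keratins of simple epithelium had another pattern. Krt8 had 551, 624, 703 and 2117 CPM and Krt18, its partner in simple epithelia, had 257, 306, 723 and 2430.1 CPM. Both were highest in Control 4, and neither was low in Control 3, unlike Krt15, Krt4 and Krt14. Krt19 had 581, 811, 9.30 and 1996 CPM and Krt7 had 584, 956, 102 and 1349 CPM, with the lowest value of each in Control 3. Krt78 had 67.8, 107, 1.86 and 256 CPM and followed Krt19 in its order over the libraries. Per kb the medians of Krt4, Krt19, Krt18, Krt8 and Krt5 were 449, 442, 358, 339 and 330.0 CPM per kb, a narrow range beside the 3642 CPM per kb of Krt15 and small against the spread between libraries. Krt20, the keratin of umbrella cells of the mature bladder, was at 0 in all 4 libraries, with the 3-count limit of the deepest one at 0.396 CPM.

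**Figure D2:**
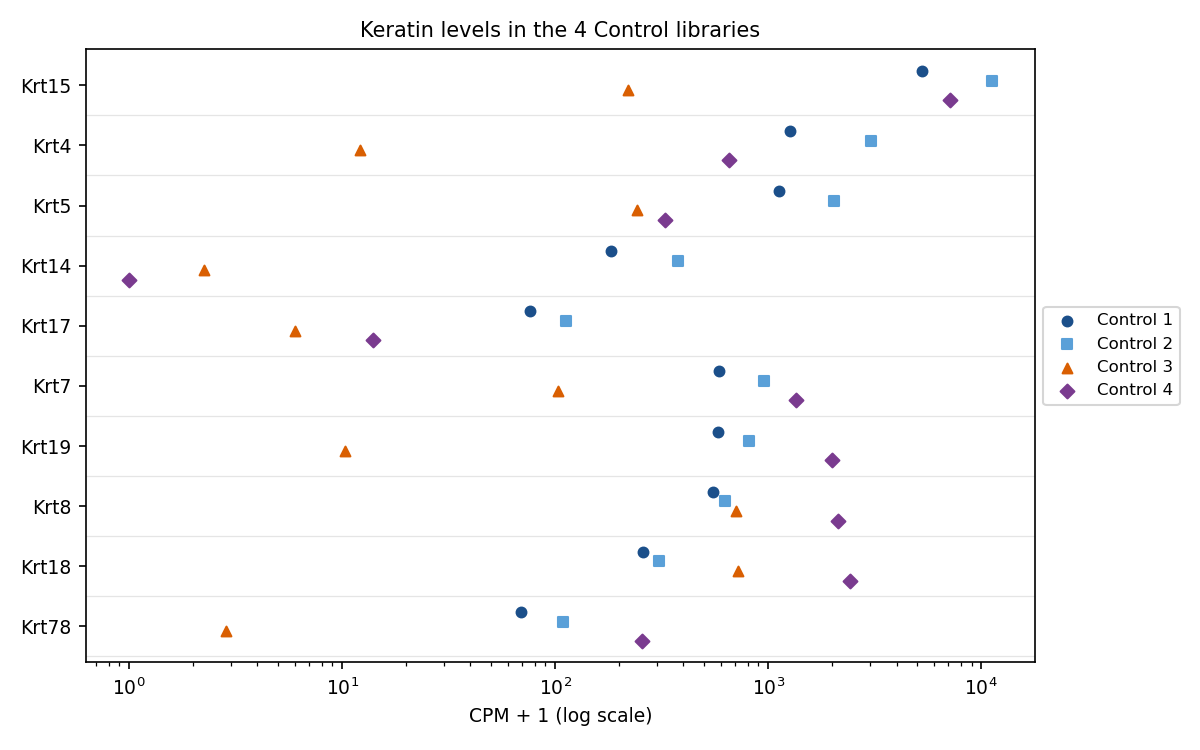
Levels of 10 keratin genes as CPM + 1 on a log axis, 1 marker for each Control library. Control 3 is the lowest library for most of these keratins but not for Krt8, Krt18 or Krt14, and Control 4 is the highest for Krt7, Krt19, Krt8, Krt18 and Krt78.

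The type II keratin genes and Krt18 lie together on mouse chromosome 15, and the 60 bases before the RefSeq start of 5 of them (GRCm38.p6, strand of the gene, 5′ to 3′) are shown because their levels differed in pattern over the libraries. Capitals mark ATAAA, the last 5 bases of TATAAA, a form of the TATA box. It was chosen after the sequences were seen and searched on the strand of the gene only. No marked stretch below follows a t, so none is a full TATAAA. Krt5 at chr15:101712906-101712965, Krt78 at chr15:101954288-101954347 and Krt8 at chr15:102004343-102004402 are on the minus strand, and Krt7 at chr15:101412343-101412402 and Krt18 at chr15:102028156-102028215 on the plus strand.
Krt5: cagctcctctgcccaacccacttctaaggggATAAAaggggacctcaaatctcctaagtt
Krt78: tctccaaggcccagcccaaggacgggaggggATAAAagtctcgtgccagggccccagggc
Krt7: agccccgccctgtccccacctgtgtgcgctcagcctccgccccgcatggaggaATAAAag
Krt8: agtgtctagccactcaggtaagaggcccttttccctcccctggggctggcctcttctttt
Krt18: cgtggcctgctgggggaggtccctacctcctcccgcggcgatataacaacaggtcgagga
The match in Krt5 and in Krt78 began 29 bases before the start, and that in Krt7 began 7 bases before it. Krt8 and Krt18 had no match in this window, and neither had Krt14, Krt2 and Krt79, which are not shown. Krt18 holds gatataac and Krt2 tatataag, letters close to a TATA box that this search does not count. A match or its absence therefore does not sort these genes by a TATA box. RefSeq promoters were found for 35 of the 50 keratin genes, and 23 of their 36 promoters (63.9%) held ATAAA in the 60 bases, against 2458 of 32851 promoters of all genes (7.48%) and 1 of 77 of ribosomal protein genes (1.30%). Since the motif was chosen after keratin promoters were seen, its share among them is not a test. Of the 10 promoters of keratin genes that reached 10 CPM in a library, 5 held ATAAA. The longer TATAAA was less frequent, in 15 of the 36 keratin promoters (41.7%) and in 1 of these 10. Among promoters of all genes it was in 944 of 32851 (2.87%). Keratin genes lie in clusters of related copies, so their promoters are not independent of each other, and a match describes the letters and not a binding site. Krt15, Krt4, Krt19 and Krt17 were not matched in the promoter table.

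Genes of epithelial adhesion were present throughout. The epithelial core list of 20 genes summed to 4655, 7055, 3659 and 19653 CPM, and 17 of its genes were above 0 in every library, as were 5554 of all 20308 genes. Cdh1, the E-cadherin of adherens junctions, had 1325, 2761, 709 and 8271 CPM, with Control 4 (95% interval 8031 to 8516 CPM) far above the next library. Epcam, an epithelial cell surface protein, differed little between libraries, with 553, 652, 643 and 522 CPM. Spint2, an inhibitor of membrane-bound serine proteases, had 162, 214, 164 and 2270.1 CPM, so that 3 libraries lay together and Control 4 lay apart. The desmosome genes Dsp and Perp had 649, 798, 14.3 and 189 CPM and 650.3, 749, 117 and 487 CPM and were lowest in Control 3.

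Genes of urothelial differentiation were found mainly in Controls 1, 2 and 4. Uroplakins form the plaques on the surface of bladder urothelium. The 6 uroplakin genes summed to 482, 579, 4.34 and 1815 CPM, including Upk1b with 283, 399, 3.10 and 1049 CPM and Upk1a with 103, 103, 0.620 and 348 CPM. Psca, a surface antigen of urothelium and prostate, had 43.4, 85.8, 3.72 and 495 CPM. Control 3 held 5, 1 and 6 counts of these 3 genes in that order, and Control 4 was the highest library for each.

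Markers of the stroma were carried over in all 4 libraries, in very different amounts. The 24 stromal genes summed to 7231, 7282, 12157 and 1375 CPM and the 44 collagens to 8949, 9079.5, 12601 and 1249 CPM. The sum of the 18 basal epithelial genes, which was 8761, 16009, 948 and 8637 CPM, was 1.21, 2.20, 0.0780 and 6.28 times the stromal sum. The sum of the epithelial core list was 0.644, 0.969, 0.301 and 14.3 times the stromal sum. In counts, with no correction for transcript length, stromal genes exceeded both epithelial lists in Control 3 and neither in Control 4, while in Controls 1 and 2 they lay below the basal list and above the epithelial core list. In such bulk samples, fewer cells of a type and less RNA of that type per cell cannot be told apart.

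Col3a1 and Col1a1, fibrillar collagens of connective tissue, had 2200.0, 1814, 1818 and 158 CPM and 1012, 1546, 3216 and 524 CPM. Vim, the intermediate filament gene of mesenchyme, had 316, 328, 542 and 27.6 CPM. All 3 were lowest in Control 4, and Col1a1 and Vim were highest in Control 3. Smooth muscle genes, 12 in all, summed to 934, 1574, 2301 and 73.7 CPM, among them the muscle myosin Myh11 with 222, 629, 930.3 and 12.9 CPM, and had the same order of libraries.

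Markers of neurons and glia and of red cells were highest in Control 3. The 18 neural and glial genes summed to 1713, 950.2, 4246 and 657 CPM, with the neurofilament gene Nefm at 469.8, 393, 2683 and 327 CPM and Sox10, a regulator of neural crest and glia, at 0, 0, 72.5 and 0 CPM. The 12 erythroid genes summed to 1775, 793, 4789.6 and 278 CPM, including the globins Hba-a2 (681, 322, 2446 and 259 CPM) and Hbb-bs (775, 427, 1934 and 15.1 CPM). Hba and Hbb genes are near-identical copies, so the share of each is uncertain. The 13 immune genes summed to 43.1, 61.8, 399 and 44.4 CPM and the 12 endothelial genes to 84.9, 60.4, 198 and 202 CPM. The first gene of each list was low, with Ptprc at 6.60, 0, 0.620 and 0 CPM and Pecam1 at 8.84, 14.1, 1.24 and 0 CPM. In Control 3 nearly all of both sums therefore came from other members, with 8 immune and 9 endothelial genes above 0 there. Most of the endothelial sum of Control 4 was Egfl7, at 195 CPM there.

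Markers of neighbouring ducts were highest in Control 3, and those of gut were nearly absent. The 10 markers of the Wolffian and Mullerian ducts summed to 75.2, 30.5, 415 and 0 CPM, with Pax2, the first gene of the list, at 0 in all 4 libraries. In Control 3 they included Cdh16 (119 CPM), Wt1 (94.2 CPM) and Emx2 (78.7 CPM). Of the 10 hindgut genes, 9 were at 0 in every library, Cdx2 among them, as were 6662 of all 20308 genes. The exception was Lgr5, a stem cell receptor that other tissues also express. A list of 25 secreted liver proteins, drawn up after the values were seen, summed to 21.1, 18.2, 1181 and 765 CPM. Its best-known member, albumin (Alb), had 0.264, 1.03, 60.7 and 132 CPM, so this signal lay in the shallow libraries. Mup19 and Mup7, major urinary protein genes with near-identical copies, were at 541 and 328 CPM in Control 3 and at 0 elsewhere. Ambp and Fgl1, secreted proteins of the liver, were at 333 and 294 CPM in Control 4 and at or below 0.680 CPM elsewhere. The source of the liver transcripts was not tested.

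**Figure D3:**
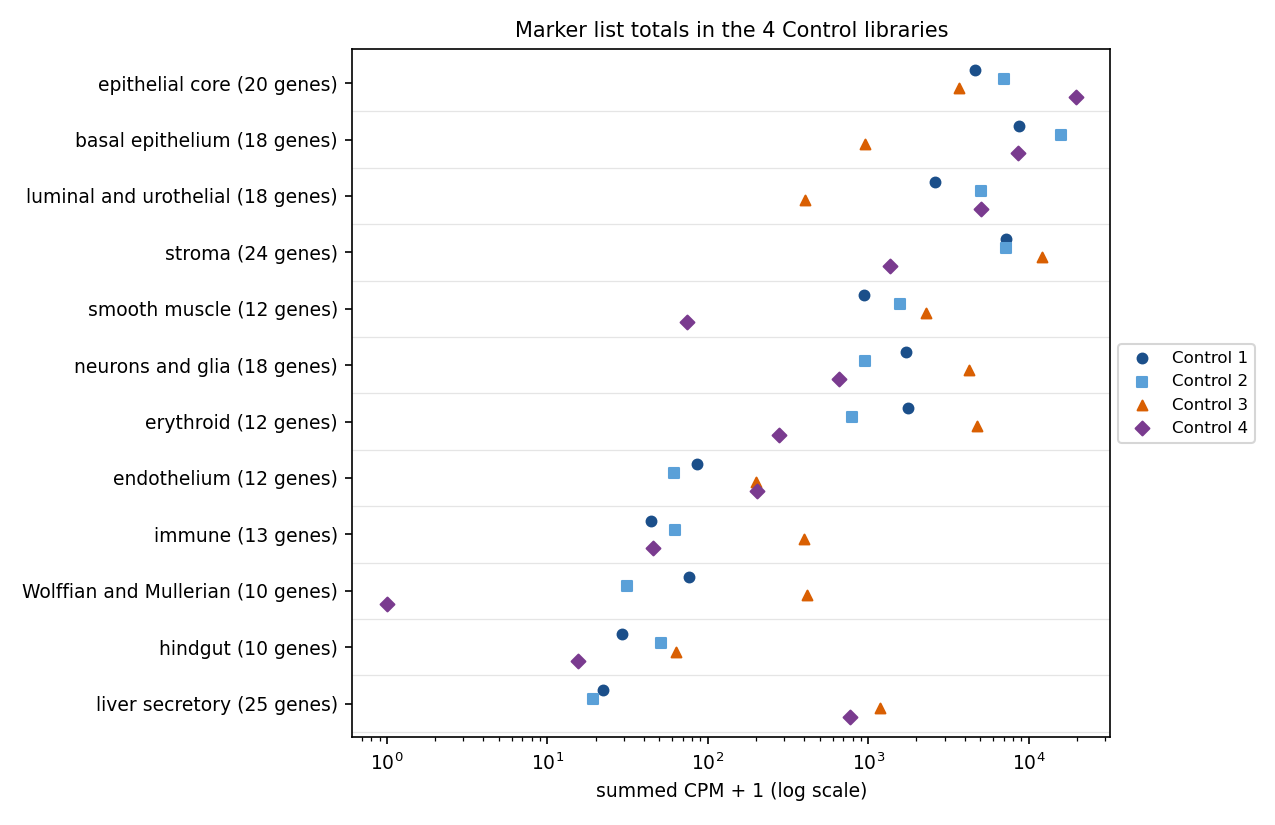
Summed level of the marker genes of 12 cell types, as CPM + 1 on a log axis, with 1 marker for each Control library and the number of genes of each list beside its name. Control 3 is the lowest library for the 3 epithelial lists and the highest for stroma, smooth muscle, neurons and glia, and red cells, while Control 4 is the lowest for those 4 lists.

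The regulators of the epithelium included factors of basal, endodermal and posterior identity. The 58 transcription factors of urogenital development summed to 3408, 4100.1, 4021 and 7626 CPM, 29 were above 0 in all 4 libraries and 15 reached 10 CPM in all 4. Among all 20308 genes, 5554 and 2309 did so. Within the list of factors, by median level per kb, Sox4 (228), Id1 (206), Hes1 (85.1), Id3 (78.8) and Gata3 (73.5 CPM per kb) led. Sox4 is a factor of progenitor cells, Id1 and Id3 inhibit basic helix-loop-helix factors, Hes1 is a target of Notch and Gata3 is a factor of urothelium and duct epithelia.

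Gata3 was among the more even factors, with 183, 199, 274 and 375 CPM. Trp63, the master factor of basal cells, had 247, 238, 1.86 and 162 CPM, so the 3 libraries with high Krt15 also had Trp63 above 100 CPM. Control 3, with 3 counts (95% interval 0.383 to 5.43 CPM), had both at their lowest. Sox4 had 444, 665, 1524 and 2864 CPM and went the other way, with both shallow libraries above both deep ones. Sox9, a factor of bud tips in many epithelia, had 80.8, 84.8, 337 and 178 CPM and was likewise higher in the shallow libraries.

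Foxa1, a pioneer factor of endodermal epithelia, had 83.8, 75.3, 1.86 and 29.4 CPM. Hoxd13 and Hoxb13, homeobox genes of the posterior body and of the prostate, had 105, 60.03, 19.2 and 38.6 CPM and 17.2, 13.4, 0 and 1.84 CPM. Hoxb13 was measured with confidence in the deep libraries only, since Controls 3 and 4 held 0 and 1 counts. Klf5, a factor of proliferating epithelium, had 46.8, 118, 1.24 and 567 CPM, and the epithelial ETS factors Ehf and Elf3 had 168, 238, 91.1 and 269 CPM and 99.8, 297, 60.1 and 53.3 CPM. Ehf varied less than Klf5, which was spread over more than 100-fold.

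Nr2f2, an orphan nuclear receptor best known in mesenchyme, had 336, 441, 279 and 1061 CPM and so was not lowest in Control 4, the library with the fewest stromal transcripts. Tbx3, a T-box factor of budding organs, had 164, 227, 498 and 237 CPM, with Control 3 highest. The GATA factors, 6 in the table, summed to 276, 310.1, 539 and 549 CPM, and the 38 HOX genes to 615, 528, 896 and 375 CPM. At or above 10 CPM in both deep libraries were 13 of the HOX genes, and 7616 of all 20308 genes.

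**Figure D4:**
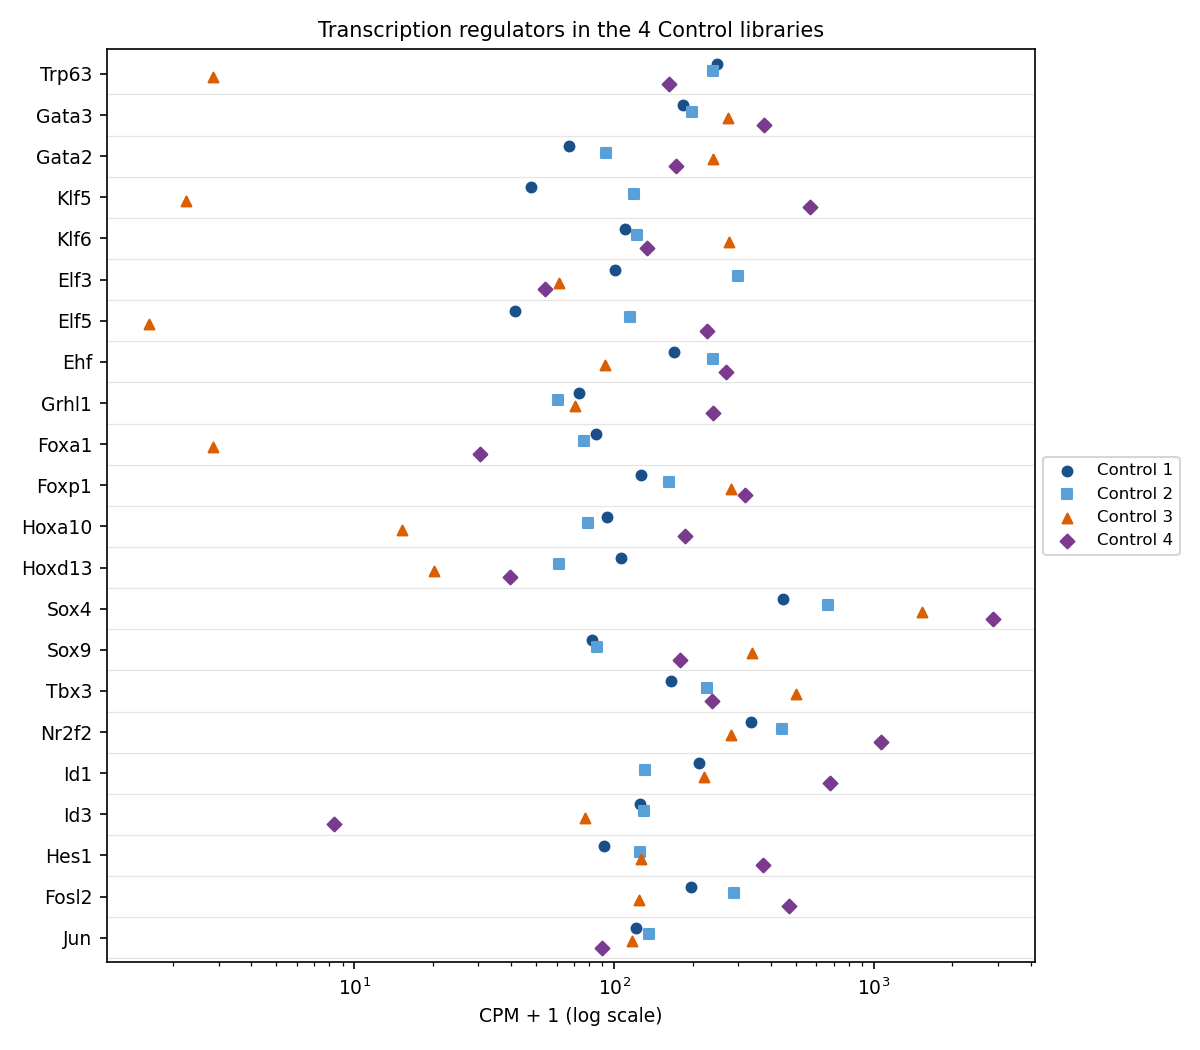
Levels of 22 transcription regulators as CPM + 1 on a log axis, 1 marker for each Control library. Trp63, Klf5, Elf5 and Foxa1 lie far lower in Control 3 than elsewhere, while Sox4, Foxp1 and Gata3 are higher in Controls 3 and 4 than in Controls 1 and 2.

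Ligands of many families were found, few of them at an even level. The 74 ligands summed to 3809.5, 4582, 3744 and 3210.2 CPM (mean 3836 ± 565 CPM, SD, n = 4), of which 17 genes were at 0 in every library, 20 were above 0 in all and 11 reached 10 CPM in all. For all 20308 genes these counts were 6662, 5554 and 2309, so the share of ligands above 0 in all was about that of all genes. The ligand sum was far steadier than that of the keratins, although its members were not. By median level per kb the growth factor Mdk led (442 CPM per kb), followed by Igf2 (125), Ptn (118), Igf1 (103) and Efnb2 (94.3 CPM per kb).

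Shh, the hedgehog ligand of this epithelium, had 234, 85.8, 3.10 and 432 CPM. Control 3 held 5 counts of it (95% interval 1.01 to 7.23 CPM), the lowest of the libraries, and Control 4 had the highest level. The hedgehog receptor and target Ptch1 had 37.5, 35.7, 38.4 and 3.68 CPM and the target Gli1 had 23.2, 8.58, 0 and 0 CPM. Gli1 was at 0 in both shallow libraries, and Ptch1 was low in Control 4 only. Ptch1 and Gli1 were named after their values were seen.

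Among Wnt ligands, Wnt4 had 267, 329, 125 and 765 CPM and Wnt7b had 36.2, 79.9, 0.620 and 232 CPM, and both were highest in Control 4 and lowest in Control 3. Wnt5a, a ligand also known from mesenchyme, had 30.1, 42.2, 317 and 0 CPM, with Control 3 highest and Control 4 lowest. Wnt10b, a marker of early prostatic buds, had 5.28, 0, 1.24 and 0 CPM. Efnb2, an ephrin that acts through Eph receptors, and the semaphorin Sema3c were more even, at 451, 717, 343 and 453 CPM and 345, 425, 141 and 228 CPM.

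Growth factors known from mesenchyme were low in Control 4. Igf2 had 434, 489.6, 826 and 153 CPM, Igf1 had 133, 154, 230.3 and 51.5 CPM and Ptn, a heparin-binding growth factor, had 264, 227, 268 and 3.68 CPM. Ptn lay between 200 and 300 CPM in 3 libraries and was down to 2 counts in Control 4. Mdk, its relative, had 377, 365, 317 and 182 CPM and differed less. Fgf10 and Bmp4, mesenchymal ligands of prostatic budding, had 12.5, 5.49, 0 and 0 CPM and 9.52, 17.8, 0 and 0 CPM and were at 0 in both shallow libraries, where the 3-count limits are 1.86 CPM in Control 3 and 5.52 CPM in Control 4.

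Of the 79 listed receptors, 75, 68, 60 and 49 were above 0 by library, and of the 74 listed ligands 54, 44, 38 and 23. Over all 20308 genes these numbers were 13116, 10753, 9097 and 6744. Which list has more members above 0 depends on the genes chosen for it. The 79 receptors summed to 5188, 5755, 4026 and 4274 CPM (mean 4811 ± 804 CPM, SD, n = 4). In every library 48 were above 0 and 20 reached 10 CPM, against 5554 and 2309 of all genes. Gpc3, a cell surface proteoglycan that binds growth factors, had the highest median of this list (192 CPM per kb) and an even level, 333, 407, 447 and 379 CPM. Erbb2, the co-receptor of the EGF receptor family, had 164, 376, 228 and 642 CPM. Sdc1, a proteoglycan of epithelia, had 237, 353, 98.5 and 107 CPM, and here the deep libraries were above the shallow ones.

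The FGF receptors did not share a pattern. Fgfr2, the receptor through which epithelia answer Fgf10, had 184, 212, 51.4 and 0 CPM. Its 0 in Control 4 stands beside counts of 1396 and 617 in Controls 1 and 2. Fgfr3 had 128, 130.4, 0.620 and 138 CPM and had 1 count in Control 3, and Fgfr1, a receptor known from mesenchyme, had 66.4, 38.4, 158 and 14.7 CPM. Fgfr2 and Fgfr3 were therefore close between the deep libraries, and each was at or near 0 in a different shallow one.

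Notch1 and Notch3 had 57.4, 121, 62.0 and 180.3 CPM and 117, 148, 1.86 and 134 CPM. Rarg, a retinoic acid receptor of epithelia, had 93.4, 117, 1.24 and 335 CPM. Edar, the receptor of ectodysplasin in budding skin appendages, had 7.52, 0, 0 and 0 CPM and was found in the deepest library only. Eph receptors and ephrins, 22 genes, summed to 1121, 1455, 1208 and 1586 CPM, and the 10 Frizzled receptors of Wnt ligands to 307, 312, 333 and 169 CPM. Fzd7 was present in every library, with 77.1, 98.4, 176 and 101 CPM.

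**Figure D5:**
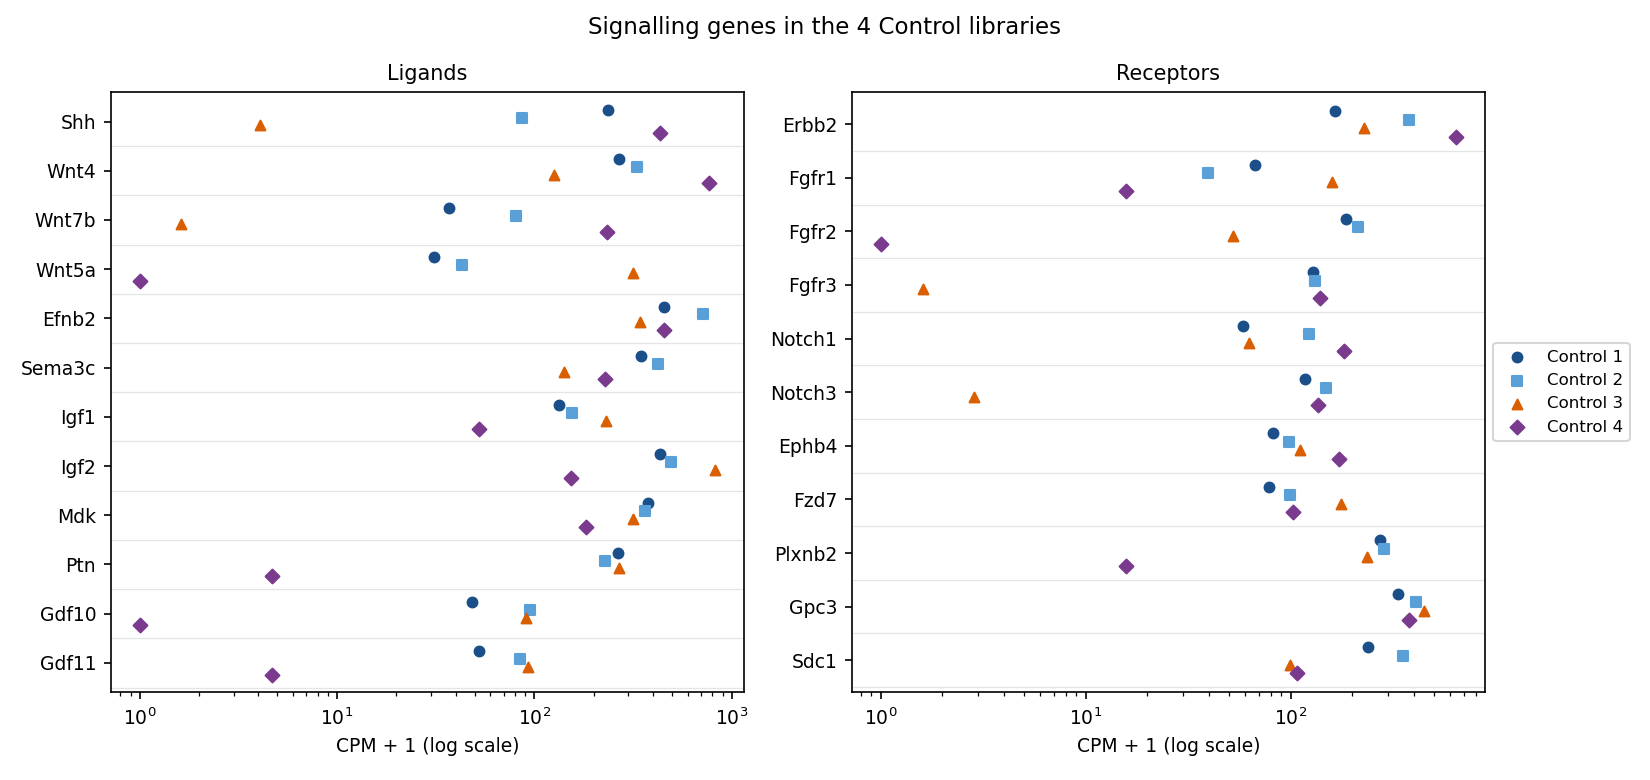
Levels of 12 ligands (left) and 11 receptors (right) as CPM + 1 on a log axis, 1 marker for each Control library. Efnb2 and Gpc3 keep the 4 libraries close together, Shh, Wnt7b, Fgfr3 and Notch3 are near 0 in Control 3, and Wnt5a, Ptn, Gdf10 and Fgfr2 are near 0 in Control 4.

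Proliferation genes had counts in all libraries, though single genes were uneven. The 34 proliferation genes summed to 7955, 7927, 11289 and 6273 CPM, and 34 of 34 reached 10 CPM in both deep libraries while 12 did so in all 4. Over all 20308 genes these numbers were 7616 and 2309. Hmgb2, a chromatin protein of dividing cells, had 1515, 1424, 1697 and 1076 CPM, whereas Mki67 and Top2a, markers of cycling cells, had 364, 443, 660.0 and 12.9 CPM and 438, 497, 1149.7 and 16.6 CPM. Hmgb2 was the most even of the 3, and the low values of the others were those of Control 4. Mki67 was named after its values were seen.

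Stress and imprinted genes also differed between libraries. The 22 genes known to respond to tissue dissociation summed to 5325, 5506, 11279.8 and 13112 CPM, higher in both shallow libraries than in both deep ones, with the chaperone Hsp90aa1 at 1469, 1743, 6466 and 7769 CPM as the clearest case. Without Hsp90aa1 the sums were 3856, 3763, 4814 and 5343 CPM, so this gene made up most of the difference. The 19 imprinted genes summed to 4560.0, 3768, 7307 and 1236 CPM, including the cell cycle inhibitor Cdkn1c at 865, 887, 1967 and 315 CPM and the G protein gene Gnas at 1233, 1051, 1019 and 46.0 CPM, and were lowest in Control 4. The Y-linked gene Ddx3y had 199, 191, 62.6 and 116 CPM, above 0 in every pool.

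Gene by gene, the deep libraries set the limits of this description. Of 9311 genes with a mean of at least 10 CPM in Controls 1 and 2, 65.7% lay within 2-fold between them. The share was 95.8% of 24 housekeeping genes, 91.2% of 34 proliferation genes, 81.3% of 16 basal genes, 78.0% of 41 transcription factors, 65.6% of 64 receptors, 59.5% of 37 ligands and 53.3% of 15 keratins. Of the same 9311 genes, 1705 were at 0 in Control 3 and 3237 in Control 4.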

How the data were processed

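RNA was measured by sequencing of polyadenylated, fragmented RNA with random hexamer priming and PCR, with no molecular identifiers mentioned in the labels, so PCR copies stay in the counts. The deposited values are RSEM estimated counts (expected counts) per gene symbol, made by the authors on the mouse build mm10; the submitters' processing notes name RSEM 1.2.3, Bowtie 0.12.9 and bcl2fastq 2.17.1.14. Neither the annotation nor trimming, mapping settings or strand handling is given in the sources used here. Therefore overlapping, antisense and near-identical genes have uncertain values. RSEM divides reads that fit several genes, and 21.0% of the genes had a fractional value.

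Only the Control columns were used, grouped by genotype label. Estimated counts were scaled to CPM on library totals of 543591 to 7577706. CPM per kb used the median length of GENCODE M21 transcripts (GRCm38) for 19327 genes. The 981 genes without a length held 2.22% to 2.75% of the counts. Pearson's r used log2(CPM + 1). Genes expected at equal depth came from the exact rarefaction formula, whose script was tested on simulated data. Tools were Python 3.11.15 with numpy 2.4.6, pandas 2.3.3 and scipy 1.17.1, and edgeR 4.0.16 in R 4.3.3 for TMM scaling as an alternative.

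Named genes were the 20 highest per kb that are neither ribosomal protein genes nor mitochondrially encoded, up to 8 of each of 20 lists, up to 4 of each of 41 families (12 for keratins), the first 6 markers of each cell type, 10 genes of interest whatever their level, of which some are not reported here, and 5 genes per library with at least 50 counts that most exceeded the others. Genes outside this rule, such as Ptch1, Gli1, Sox10, Alb and Mki67, were chosen after their values were seen. The members and lists were chosen with earlier results of these data known. Outlier checks compared each library with the rest. Alternatives changed the scaling, filter, pseudocount, length and libraries kept. Whether libraries came from separate litters is not stated, so the spread may be partly technical.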

Additional observations from a re-analysis of the deposited data

Results flagged for a closer look

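Of 197 levels and list sums checked, 34 (17.3%) had a library whose gap to the nearest other, divided by the range, exceeded Dixon's 95% critical value for 4 samples. Chance flags about 1 in 20 values, but 10 of the 34 are genes named because 1 library exceeded the others, so the share is not to be read against chance. Control 4 was the distant library in 16, Control 3 in 12, Control 1 in 5 and Control 2 in 1. The genes were chosen with their values known, and their causes were not tested.

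Control 4 stood apart with high CPM for Krt8 (2117), Spint2 (2270.1), Upk2 (237), Psca (495), Id1 (673), Hes1 (372), Grhl1 (239), Ambp (333), Fgl1 (294) and Fam25c (445), a mix of epithelial, regulatory and liver genes. It was low for Ptn (3.68) and Ptch1 (3.68 CPM). Among list sums it was high for urogenital transcription factors (7626 CPM) and housekeeping genes (44309.9 CPM) and low for integrins (627 CPM) and Frizzled receptors (169 CPM).

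Control 3 was high for Klf6 (275), Wnt5a (317), Nefm (2683), Sox10 (72.5), Mup19 (541), Mup7 (328), Serpina1e (99.2) and Calb1 (139 CPM), and for the sum of immune genes (399 CPM). It was low for Fgfr3 (0.620 CPM) and for the sums of S100 proteins (279 CPM) and grainyhead factors (70.0 CPM).

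Control 1 was high for Edar (7.52), Ptprc (6.60), Tpt1 (3089), Ppcs (59.1) and Plekha7 (52.5 CPM), and Control 2 for G0s2 (46.0 CPM), of which Edar, Ppcs, Plekha7 and G0s2 were at 0 in the remaining libraries.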

How the results depend on the processing

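Counting genes with at least 5 counts lowered the genes detected in Control 4 from 6744 to 3311. The median Spearman rho of the 6 pairs was 0.623, rose to 0.730 with no filter on low counts, and was 0.808 for Controls 1 and 2 only; the median Pearson r was 0.587, 0.684 and 0.769. The number of genes at or above 10 CPM in every library was 2309, 2323 to 4696 without 1 library (the highest without Control 4), and 7616 in Controls 1 and 2 only. Of the 20 leading genes, 15 remained when ranked by CPM and 14 with union exon lengths. Of 1088 gene levels recomputed for 136 genes, 1076 stayed within 1 SD, as did 548 of 550 list sums. This SD is the spread over the 4 libraries and can exceed the value itself, as for the uroplakin sum (mean 720 CPM, SD 772 CPM). Leaving out 1 library cannot move a mean list sum by 1 SD. These counts therefore do not measure how robust the levels are. TMM scaling shifted all genes by -0.23, -0.19, 0.06 and 0.36 on the log2 scale in Controls 1 to 4, with no change past 1 SD in any value recomputed. In Control 4, 3 counts are 5.52 CPM, and lower levels could not be told from 0 there. The alternatives with Controls 1 and 2 only, union exon lengths totals without Lars2 and stress genes without Hsp90aa1 were chosen after seeing the data. Totals without mitochondrially encoded genes were not run, because no gene symbol of that kind is in the table used here. No paired analysis was possible because a single group is described and no groups were compared.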
